A study of Oryza sativa with 11 samples.

Results

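The change between anther stages 10 and 12 in the rice mutant ostie1-1 was measured by RNA sequencing of whole anthers. It was taken from 5 of the 11 libraries of the series: 2 of ostie1-1 anthers at stage 12 and 3 of ostie1-1 anthers at stage 10, chosen by their labels. The other 6 libraries, 3 of wild-type (WT) anthers at stage 12 and 3 at stage 10, served only to ask where the change in the mutant differed from that in WT. Both ostie1-1 groups carry the same single mutant allele, and all plants were grown in the field and left untreated. The series links OsTIE1, a transcriptional repressor, to anther dehiscence, male sterility and the synthesis of the hormone jasmonate (JA). The level of OsTIE1 itself was not analysed here. The labels count biological replicates without saying whether these came from separate plants, so the p-values cover only the spread among the samples at hand, which may be technical. Of 55803 loci in the table, 19563 reached the test, and 19548 were listed at 0 in all 5 libraries.

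Between these stages the rice anther passes from vacuolated microspores to ripe pollen close to release. The tapetum, the inner nurse layer, feeds the microspores, makes the lipid precursors of their outer wall and then dies. The pollen grains take up sugar, store starch and make the proteins of the later pollen tube, and JA acts through the receptor COI1, which removes JAZ repressors from the activator MYC2, in the opening of the anther.

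Gene names in the text were matched to the MSU locus IDs of the table from general knowledge and not from an annotation, so each is given with its ID. Levels are in FPKM (fragments scaled to transcript length and library size), and a fold change is the difference of mean log2(scaled FPKM + 1) between stages. On that scale the change of a gene at a low level is understated. The level of a gene was set against other genes only as FPKM. The 23 gene lists used to describe the change held 284 loci of the table, of which 189 were tested. Few loci with more than 1 transcript model reached the test (1079 of 6459, against 18484 of 49344 with 1 model), so low values there are not read as absence. Library depths inferred from the steps between low FPKM lay between 0.943 and 1.17 relative to stage 10 replicate 1 in the 5 libraries. The 10 highest loci held 11.9% and 17.2% of the FPKM sum at stage 12, against 23.6%, 23.9% and 24.3% at stage 10.

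At stage 12, 1784 loci were higher and 856 were lower than at stage 10 (limma, Benjamini-Hochberg adjusted p under 0.05), which is 9.12% and 4.38% of the loci tested and 13.5% in all. At an unadjusted p under 0.05, 5725 loci (29.3%) differed. The rises were the larger group at every size: 917 loci rose and 347 fell by 4-fold or more, and 427 rose and 64 fell by 8-fold or more. The loci that rose had a median FPKM of 17.8 at stage 12 and 2.06 at stage 10. Those that fell had a median FPKM of 3.72 at stage 12 and 18.6 at stage 10. The median log2 fold change of all loci tested was -0.03. The stage 12 and stage 10 libraries did not overlap at any of the 2640 loci called, and groups that did not overlap were frequent over all loci, at 24.5% with stage 12 higher and 20.5% with stage 12 lower. Since whole anthers were sequenced, fewer cells of a type and less RNA per cell cannot be told apart.

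Stage 12 was represented by 2 libraries, and the number of calls rested on them. Without stage 12 replicate 1, which leaves a single library assumed to vary like stage 10, 76 loci (0.409%) were called. Without stage 12 replicate 2, 1092 were called, and without stage 10 replicates 1, 2 and 3, 2556, 611 and 1633. The first principal component held 65.0% of the variance and separated the stages, with scores of 110.6 and 77.6 at stage 12, against -70.7, -71.2 and -46.3 at stage 10. The second held 23.8% and ran across the stages, with 38.0 and -54.7 at stage 12, against -59.3, 25.4 and 50.5 at stage 10, so that stage 12 replicate 2 and stage 10 replicate 1 stood on one side. The correlation of log2 values over the loci tested was 0.91 between the stage 12 libraries, 0.90 to 0.97 among the stage 10 libraries and 0.73 to 0.84 between stages. All 48 list members called kept their direction in every alternative fit that tested them. Since their stages did not overlap, leaving out a library could hardly reverse a direction, so this does not support the calls.

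**Figure D1:**
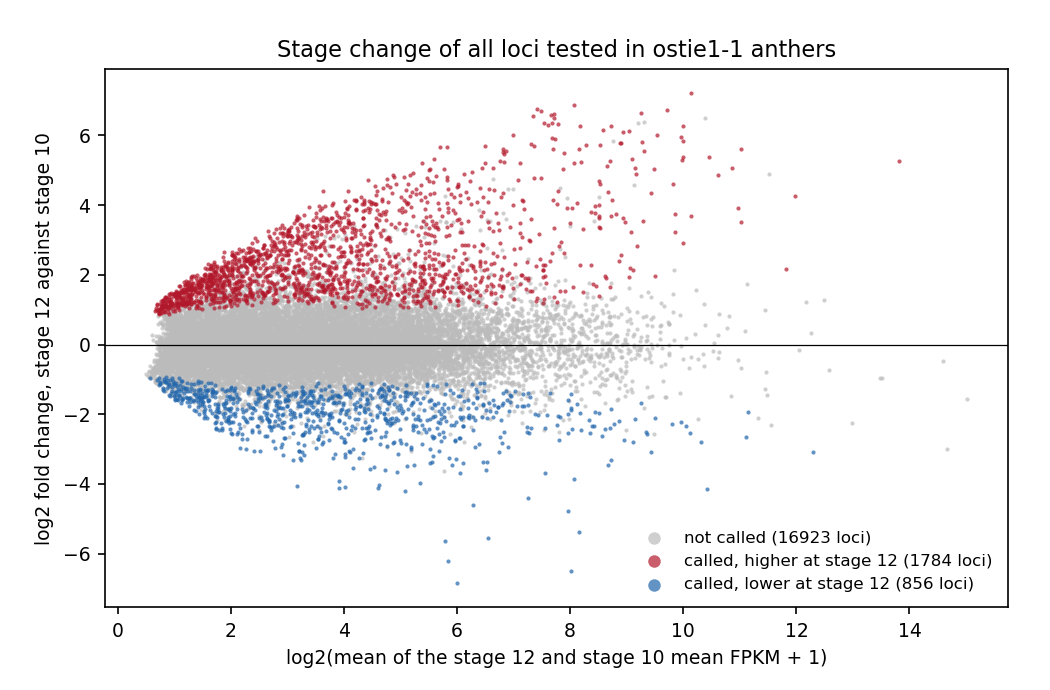
Log2 fold change of stage 12 against stage 10 in ostie1-1 anthers (vertical axis) against mean level (horizontal axis, log2 of FPKM + 1), with 1 point per locus tested. Loci that rose (1784, red) reach further from 0 than loci that fell (856, blue), and loci not called (grey) lie around the line at 0.

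The largest rises among list members were those of pollen profilins. Of 9 late pollen genes tested, 7 rose and none fell, with a median log2 fold change of 2.96 against -0.03 over all loci, where 9.12% rose. Profilins bind actin monomers and serve the growth of the pollen tube. The pollen profilin at LOC_Os10g17680 had 1291 and 1172 FPKM at stage 12, against 21.1, 13 and 57.1 FPKM at stage 10. Its neighbour at LOC_Os10g17660 had 1715 and 1049.9 FPKM at stage 12, against 29.8, 27.2 and 78.1 FPKM at stage 10. For both, each stage 12 library exceeded every stage 10 library by more than 10 times, and replicate 3 was the highest at stage 10. The log2 fold changes were 5.55 (SE 0.56, limma adjusted p = 0.0051) and 5.03 (SE 0.48, limma adjusted p = 0.00494). The 2 profilin loci are near copies, so reads may have been split between them.

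Beta-expansins of the grass pollen allergen group loosen cell walls in the path of the pollen tube. EXPB9 (LOC_Os10g40090) had 11787 and 3483 FPKM at stage 12, against 179, 246 and 846 FPKM at stage 10, and stage 12 replicate 1 held more than 3 times the level of replicate 2 (log2 fold change 4.25, SE 0.76, limma adjusted p = 0.017). EXPB1 (LOC_Os03g01610) had 23.6 and 7.9 FPKM at stage 12, against 0, 0.0313 and 0.635 FPKM at stage 10, and was listed at 0 in stage 10 replicate 1 (log2 fold change 3.64, SE 0.46, limma adjusted p = 0.00718). EXPB13 (LOC_Os03g01650), named like the next 3 genes after its values were seen, differed from these in having the higher stage 12 level in replicate 2, with 5.94 and 16 FPKM at stage 12 and 0.133, 0 and 1.48 at stage 10. EXPB1 and EXPB13 are similar neighbours, so reads may have been split between them. MADS62 and MADS63, MIKC* transcription factors needed in ripening pollen, rose as well. MADS63 (LOC_Os06g11970) had 87.2 and 56.2 FPKM at stage 12, against 10.1, 6.57 and 10.2 FPKM at stage 10 (log2 fold change 2.85, SE 0.35, limma adjusted p = 0.00668), and MADS62 (LOC_Os08g38590) changed by 2.57 (SE 0.42, limma adjusted p = 0.014). The third factor of that class, MADS68 (LOC_Os11g43740), had 26 and 6.74 FPKM at stage 12 and 2.6, 2.21 and 3.68 at stage 10 and did not pass (limma adjusted p = 0.0525). RUPO (LOC_Os06g03610), a receptor-like kinase of the pollen tube, had 75.6 and 7.02 FPKM at stage 12 and 0.295, 4.36 and 10.5 at stage 10, with stage 12 replicate 2 inside the stage 10 range.

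The summed level of the late pollen list was 15056 and 5816 FPKM at stage 12, against 246, 303 and 1013 FPKM at stage 10. Stage 12 replicate 1 was the higher stage 12 library in 8 of the 9 genes, against 57.7% of all loci, and stage 10 replicate 3 was the highest stage 10 library in 9 of 9, against 46.3%. Of the 7 genes that rose, the number still called was 0 without stage 12 replicate 1, 5 without stage 12 replicate 2, and 5, 4 and 7 without stage 10 replicates 1, 2 and 3. EXPB1 was not tested without either stage 12 library, since it reached 1 FPKM only in these 2 and the filter on low values then dropped it. The filter kept EXPB1 through the stage in which it rose. Its direction and its place among the 7 are therefore not independent of the filter.

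Of 7 regulators of the tapetum tested none was called, against 13.5% of all loci, and 3 had an unadjusted p under 0.05, against 29.3% of all loci. Of the 7, 6 had negative log2 fold changes, and the list's median was -0.86. TDR (LOC_Os02g02820), the bHLH factor that promotes tapetum degeneration, had 159 and 153 FPKM at stage 12, against 286, 397 and 375 FPKM at stage 10, which did not overlap (log2 fold change -1.16, SE 0.31, limma adjusted p = 0.0556). EAT1 (LOC_Os04g51070), which switches on tapetal protease genes, had 36.5 and 106 FPKM at stage 12 and 92.2, 271 and 262 at stage 10. Stage 12 replicate 2 lay above stage 10 replicate 1 there (limma adjusted p = 0.143). Among the 3 tapetal proteases 1 was called, AP25 (LOC_Os03g08790), an aspartic protease of tapetal cell death. It fell to 0.119 and 0.716 FPKM at stage 12, against 7.07, 3.58 and 6.59 FPKM at stage 10 (log2 fold change -2.22, SE 0.41, limma adjusted p = 0.0183). The other aspartic protease, AP37 (LOC_Os04g37570), had 2.48 and 1.36 FPKM at stage 12 and 0.98, 1.56 and 1.76 at stage 10 (limma adjusted p = 0.622).

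Lipid supply to the pollen wall and the anther cuticle held 3 of the falls. DPW (LOC_Os03g07140) makes fatty alcohols for sporopollenin, the polymer of the outer pollen wall. It had 14.7 and 13.1 FPKM at stage 12, against 48.9, 62.5 and 65.1 FPKM at stage 10, with all 3 stage 10 libraries above 3 times either stage 12 library (log2 fold change -2.00, SE 0.26, limma adjusted p = 0.00806). It was the 1 gene called of 6 sporopollenin genes tested, where 4.38% of all loci fell and 13.5% were called, and the list's median was -1.46. The hydroxylase CYP704B2 (LOC_Os03g07250) and the polyketide synthase PKS1 (LOC_Os10g34360) of the same pathway spread widely at stage 10. CYP704B2 had 0.41 and 0.509 FPKM at stage 12 and 2.59, 5.69 and 33.4 at stage 10 (limma adjusted p = 0.0794), and PKS1 had 0.149 and 0.181 FPKM at stage 12 and 0.55, 3.19 and 24.3 at stage 10 (limma adjusted p = 0.198). In both, stage 10 replicate 3 was several times the other stage 10 libraries.

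C6 (LOC_Os11g37280), a lipid transfer protein of the tapetum, was among the most abundant messages of stage 10 anthers. It had 985 and 1019.6 FPKM at stage 12, against 5220.4, 8651 and 13211 FPKM at stage 10 (log2 fold change -3.07, SE 0.61, limma adjusted p = 0.0223). ABCG26 (LOC_Os10g35180), an ABC transporter of anther lipids, had 84.2 and 84.6 FPKM at stage 12, against 275, 418 and 399 FPKM at stage 10 (log2 fold change -2.08, SE 0.31, limma adjusted p = 0.011). The pair of stage 12 libraries was close to equal in both genes, and both were below every stage 10 library. Of the 6 cuticle and export genes tested 2 thus fell, against 4.38% of all loci, and the other 4 did not pass. Among them the triterpene synthase OSC12 (LOC_Os08g12740) had 17.2 and 1.88 FPKM at stage 12 and 8.07, 52.9 and 82.5 at stage 10.

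Of the 4 falls in the protease, sporopollenin and cuticle lists, 0 passed without stage 12 replicate 1. In the cuticle list, of the 2 that fell, the number still called was 0 without stage 12 replicate 1, 1 without stage 12 replicate 2, and 2, 0 and 1 without stage 10 replicates 1, 2 and 3. DPW was called without stage 12 replicate 2 and without stage 10 replicate 1 or 3, and AP25 without any single stage 10 library.

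**Figure D2:**
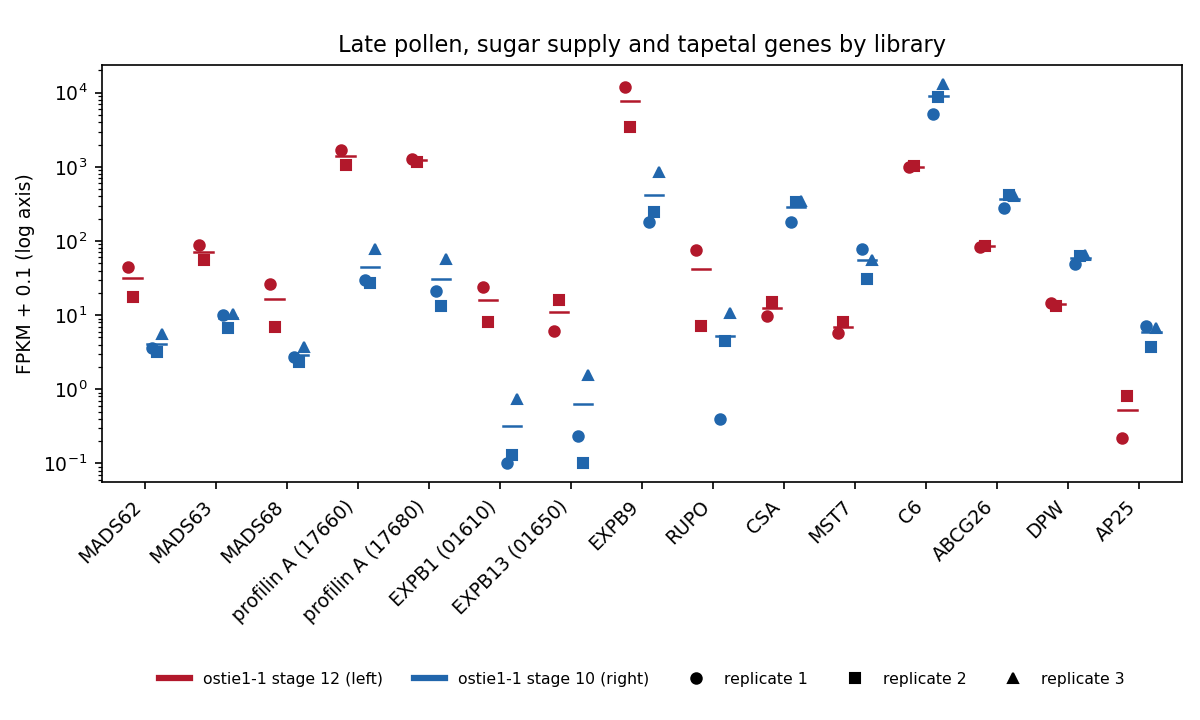
FPKM + 0.1 (vertical log axis) of 15 genes in each ostie1-1 library, stage 12 in red at the left and stage 10 in blue at the right of each gene, with lines at the means. Late pollen genes from MADS62 to EXPB9 were higher at stage 12, RUPO overlapped between stages, and CSA, MST7, C6, ABCG26, DPW and AP25 were lower at stage 12.

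Genes of sugar supply to pollen moved in both directions, with 3 rises and 2 falls among 15 tested, against 9.12% higher and 4.38% lower over all loci. The list's median log2 fold change was 0.34. CSA (LOC_Os01g16810), a MYB factor that governs sugar partitioning to the anther, fell furthest of the list. It had 9.62 and 15.1 FPKM at stage 12, against 181, 339.7 and 349.9 FPKM at stage 10 (log2 fold change -4.42, SE 0.37, limma adjusted p = 0.00484). Each stage 10 library held more than 10 times the level of either stage 12 library. The sugar transporter MST7 (LOC_Os01g38680) fell too, with 5.72 and 8.06 FPKM at stage 12, against 78.3, 30.8 and 54.7 FPKM at stage 10 (log2 fold change -2.74, SE 0.49, limma adjusted p = 0.0171). MST8 (LOC_Os01g38670), its neighbour in the genome and a known target of CSA, had 230.4 and 645 FPKM at stage 12 and 743, 228 and 252 at stage 10, with overlapping stages (limma adjusted p = 0.929).

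The transporters that rose were MST5 (LOC_Os08g08070), a monosaccharide carrier known from the rice panicle, and SUT3 (LOC_Os10g26470), a sucrose carrier of pollen. SUT3 had 58.7 and 19.6 FPKM at stage 12, against 0.0428, 0.201 and 5.95 FPKM at stage 10 (log2 fold change 4.12, SE 0.84, limma adjusted p = 0.0241). MST5 had 79.9 and 19.3 FPKM at stage 12, against 2.82, 3.22 and 6.19 FPKM at stage 10 (log2 fold change 3.05, SE 0.56, limma adjusted p = 0.0178). In both genes stage 12 replicate 1 was about 3 to 4 times replicate 2. UGP2 (LOC_Os02g02560), a UDP-glucose pyrophosphorylase needed late in pollen and named after its values were seen, had 88.6 and 29.2 FPKM at stage 12, against 12, 9.3 and 12.2 FPKM at stage 10 (log2 fold change 2.10, SE 0.46, limma adjusted p = 0.0289). INV4 (LOC_Os04g33720), the anther's cell wall invertase, had 620.2 and 448 FPKM at stage 12 and 238, 212 and 175 at stage 10, which did not overlap and did not pass (limma adjusted p = 0.0618). Of the 5 sugar supply genes called, the number still called was 1 without stage 12 replicate 1, 3 without stage 12 replicate 2, and 2, 2 and 4 without stage 10 replicates 1, 2 and 3. CSA passed in all 15 alternative fits.

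In starch synthesis 2 of 14 genes tested rose and none fell, a count near that over all loci (9.12% higher, 13.5% called). The list's median log2 fold change was 0.26. The 2 called code for large subunits of ADP-glucose pyrophosphorylase, the enzyme that commits sugar to starch, and both were low and named after their values were seen. AGPL2 (LOC_Os01g44220) had 5.06 and 3.17 FPKM at stage 12, against 0.724, 0.387 and 1.22 FPKM at stage 10 (log2 fold change 1.52, SE 0.32, limma adjusted p = 0.0253). AGPL3 (LOC_Os03g52460) had 4.69 and 3.57 FPKM at stage 12, against 0.937, 1.25 and 0.87 FPKM at stage 10 (log2 fold change 1.33, SE 0.28, limma adjusted p = 0.0254). AGPL4 (LOC_Os07g13980) was high in stage 12 replicate 1 alone, with 24.2 and 0.619 FPKM at stage 12 and 0.46, 1.48 and 2.63 at stage 10. The branching enzyme BEIIb (LOC_Os02g32660) had 144 and 138 FPKM at stage 12 and 125, 130.5 and 159.9 at stage 10, a log2 fold change of 0.03 (SE 0.29). Of the 2 genes that rose, the number still called was 0 without stage 12 replicate 1, 0 without stage 12 replicate 2, and 2, 0 and 1 without stage 10 replicates 1, 2 and 3.

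JA signalling genes split evenly, with 4 rises and 4 falls among 13 tested, against 9.12% higher and 4.38% lower over all loci, and JA synthesis genes did not pass. The median log2 fold change of the signalling list was -0.18, and 0.05 without stage 12 replicate 1. The split ran through the JAZ family, repressors that bind MYC2 until JA leads to their removal. The 3 neighbours on chromosome 3 went separate ways. JAZ9 (LOC_Os03g08310) had 1519 and 794 FPKM at stage 12, against 197, 289 and 384 FPKM at stage 10 (log2 fold change 1.97, SE 0.42, limma adjusted p = 0.0275). JAZ11 (LOC_Os03g08320) had 5.88 and 3.85 FPKM at stage 12, against 26.5, 53.5 and 48.1 FPKM at stage 10 (log2 fold change -2.86, SE 0.34, limma adjusted p = 0.00633). JAZ10 (LOC_Os03g08330) had 23.3 and 49.3 FPKM at stage 12 and 43, 39.4 and 33.6 at stage 10, and its stages overlapped (limma adjusted p = 0.827). JAZ9 was thus higher and JAZ11 lower in both stage 12 libraries than in any stage 10 library. JAZ9 did not pass with quantile normalization (limma adjusted p = 0.0573).

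JAZ14 (LOC_Os10g25250) rose, with 139.7 and 94.7 FPKM at stage 12, against 11.4, 9.05 and 6.37 FPKM at stage 10 (log2 fold change 3.57, SE 0.38, limma adjusted p = 0.00533), and so did JAZ15 (LOC_Os03g27900), with 149 and 21.6 FPKM at stage 12, against 0.0899, 0.929 and 11.9 FPKM at stage 10 (log2 fold change 4.32, SE 1.12, limma adjusted p = 0.0492). The JAZ15 levels spread about 7-fold within stage 12 and more widely within stage 10, and its adjusted p was the nearest to the threshold of the 4. It passed in 6 of the 15 alternative fits, and not without scaling (limma adjusted p = 0.0537) or as TPM (limma adjusted p = 0.0579). JAZ13 (LOC_Os10g25230), which lies close to JAZ14 on chromosome 10, moved the other way with 67.8 and 67.7 FPKM at stage 12, against 161, 276 and 265 FPKM at stage 10 (log2 fold change -1.74, SE 0.31, limma adjusted p = 0.0173). It was named after its values were seen, like the next 3 genes. JAZ8 (LOC_Os09g26780) and JAZ5 (LOC_Os04g32480) fell, with log2 fold changes of -1.72 (SE 0.35, limma adjusted p = 0.0237) and -1.14 (SE 0.27, limma adjusted p = 0.0356). JAmyb (LOC_Os11g45740), a MYB factor induced by JA, had 21.9 and 18.6 FPKM at stage 12, against 5.01, 8.46 and 8.66 FPKM at stage 10 (log2 fold change 1.37, SE 0.30, limma adjusted p = 0.0303), and did not pass as TPM (limma adjusted p = 0.0566). MYC2 (LOC_Os10g42430) itself had 36.5 and 33.3 FPKM at stage 12 and 39.1, 30.2 and 25 at stage 10, and the receptor COI1b (LOC_Os05g37690) had 18.4 and 21.7 FPKM at stage 12 and 39, 41.8 and 31 at stage 10 (limma adjusted p = 0.803 and 0.136). Of the 8 JA signalling genes called, the number still called was 0 without stage 12 replicate 1, 3 without stage 12 replicate 2, and 5, 2 and 3 without stage 10 replicates 1, 2 and 3.

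Of 15 loci of JA synthesis, 6 were tested. Of the 15, 6 have more than 1 transcript model, and 1 of these was tested. The median log2 fold change of the 6 genes tested was -0.44. None had an unadjusted p under 0.05, against 29.3% of all loci, and none was called, against 13.5%. With 6 genes tested, these counts do not set the list apart from all loci. Allene oxide synthase AOS1 (LOC_Os03g55800) had 41.1 and 49.2 FPKM at stage 12 and 83, 61.3 and 42.4 at stage 10. Allene oxide cyclase AOC (LOC_Os03g32314), the next enzyme of the pathway, had 41.2 and 37.3 FPKM at stage 12 and 82, 48.6 and 37.9 at stage 10. In both genes the stage 12 levels lay near the lowest stage 10 library, and stage 10 replicate 1 was the highest. The JA-conjugating enzyme JAR2 (LOC_Os01g12160) had 1.06 and 3.16 FPKM at stage 12 and 6.34, 3.31 and 0.89 at stage 10.

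**Figure D3:**
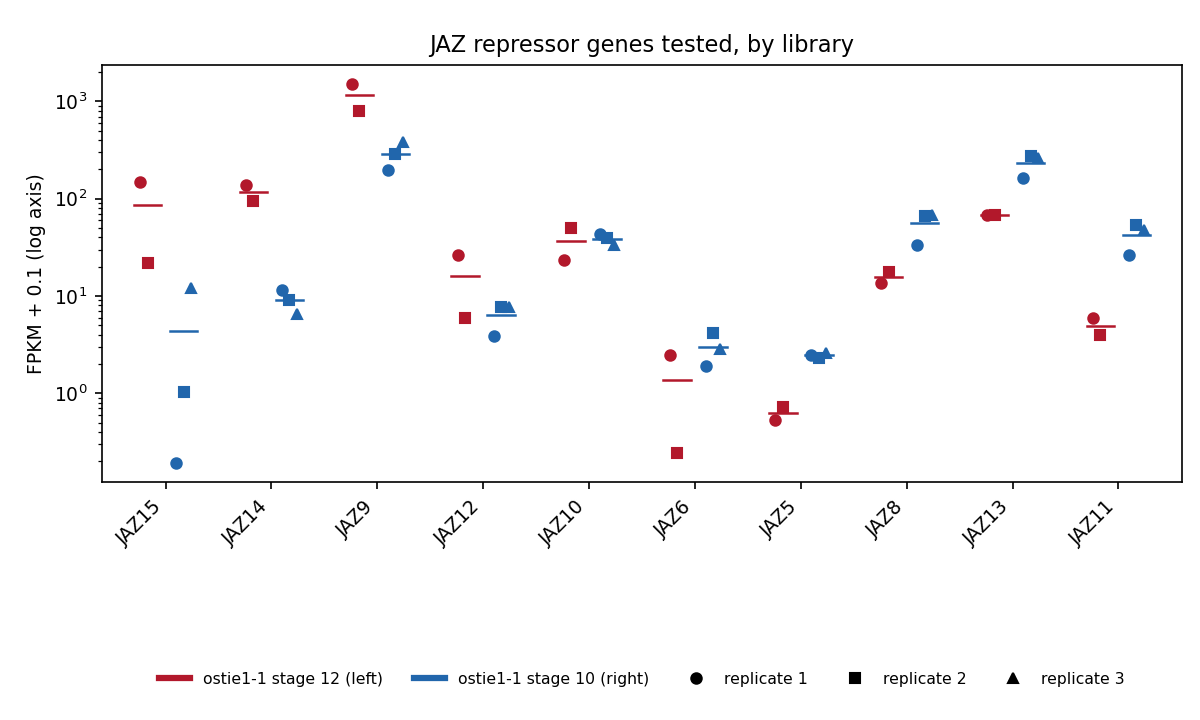
FPKM + 0.1 (vertical log axis) of the 10 JAZ repressor genes tested, in each ostie1-1 library, stage 12 in red at the left and stage 10 in blue at the right, with lines at the means. JAZ15, JAZ14 and JAZ9 at the left were higher at stage 12, JAZ5, JAZ8, JAZ13 and JAZ11 at the right were lower, and JAZ12, JAZ10 and JAZ6 overlapped.

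TCP transcription factors, the class of proteins that TIE-type repressors are known to bind in Arabidopsis, had 2 falls and no rise among 7 tested, against 4.38% lower over all loci, with a median log2 fold change of -0.91. PCF5 (LOC_Os01g11550), a factor of the CIN type, had 2.05 and 3.14 FPKM at stage 12, against 13.4, 12.5 and 7.99 FPKM at stage 10 (log2 fold change -1.76, SE 0.41, limma adjusted p = 0.0351). The TCP gene at LOC_Os11g07460 had 0.772 and 0.616 FPKM at stage 12, against 5.33, 4.9 and 5.14 FPKM at stage 10 (log2 fold change -1.85, SE 0.29, limma adjusted p = 0.0126). Its stage 10 libraries agreed closely, near 5 FPKM, and both stage 12 libraries were under 1 FPKM. All 7 log2 fold changes were negative. Stage 10 replicate 1 was the highest stage 10 library in 6 of the 7 genes, against 31.4% of all loci, and stage 12 replicate 2 was the higher stage 12 library in 5, against 42.1%. The part of these libraries in the falls was not tested. Of the 2 that fell, the number still called was 0 without stage 12 replicate 1, 0 without stage 12 replicate 2, and 1, 0 and 2 without stage 10 replicates 1, 2 and 3.

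In the auxin list 2 synthesis genes rose and none of 12 tested fell, a count near that over all loci (9.12% higher, 13.5% called), with a median log2 fold change of 0.53. The main route of auxin synthesis has a tryptophan aminotransferase followed by a YUCCA monooxygenase. YUC4 (LOC_Os01g12490) had 183 and 93.5 FPKM at stage 12, against 15, 13.9 and 25.7 FPKM at stage 10 (log2 fold change 2.82, SE 0.38, limma adjusted p = 0.0083). TAR1 (LOC_Os05g07720), an aminotransferase of the first step, had 298 and 183 FPKM at stage 12, against 85.2, 56.4 and 47.8 FPKM at stage 10 (log2 fold change 1.91, SE 0.42, limma adjusted p = 0.0307). In both, stage 12 replicate 1 was the higher library and no stage 10 library reached either. DAO (LOC_Os04g39980), which inactivates auxin in the rice anther, had 223 and 108 FPKM at stage 12 and 128, 117 and 155 at stage 10 (limma adjusted p = 0.736). Of the 2 that rose, the number still called was 0 without stage 12 replicate 1, 1 without stage 12 replicate 2, and 2, 1 and 1 without stage 10 replicates 1, 2 and 3.

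Gibberellin genes showed 3 rises and 2 falls among 15 tested, against 9.12% higher and 4.38% lower over all loci, with a median log2 fold change of -0.47. A pair of inactivating oxidases rose. GA2ox1 (LOC_Os05g06670) had 721 and 843 FPKM at stage 12, against 161, 192 and 98.8 FPKM at stage 10 (log2 fold change 2.41, SE 0.44, limma adjusted p = 0.0178). GA2ox4 (LOC_Os05g43880) had 15.5 and 10 FPKM at stage 12, against 0.307, 0 and 0.488 FPKM at stage 10, and was listed at 0 in stage 10 replicate 2 (log2 fold change 3.42, SE 0.32, limma adjusted p = 0.00484). The synthesis enzymes went both ways. KAO (LOC_Os06g02019), an early oxidase of the pathway, had 414 and 187 FPKM at stage 12, against 73.1, 56.5 and 58.1 FPKM at stage 10 (log2 fold change 2.14, SE 0.41, limma adjusted p = 0.02). GA20ox1 (LOC_Os03g63970), a later oxidase, had 26.8 and 61.4 FPKM at stage 12, against 409, 249.6 and 135 FPKM at stage 10 (log2 fold change -2.53, SE 0.65, limma adjusted p = 0.0467), with a 3-fold spread at stage 10. GA20ox2 (LOC_Os01g66100), known as the semi-dwarf gene SD1 and named after its values were seen, fell by 1.70 on the log2 scale. GA20ox3 (LOC_Os07g07420), the most abundant of the 3, had 912 and 490.0 FPKM at stage 12 and 400.4, 323 and 263 at stage 10 (limma adjusted p = 0.178). The DELLA repressor SLR1 (LOC_Os03g49990) had 112 and 149 FPKM at stage 12 and 334, 189.7 and 121 at stage 10 (limma adjusted p = 0.517). Of the 5 called, the number still called was 0 without stage 12 replicate 1, 1 without stage 12 replicate 2, and 4, 1 and 4 without stage 10 replicates 1, 2 and 3. GA2ox4 reached 1 FPKM only in the 2 stage 12 libraries, so the filter on low values dropped it when either was left out. It was not tested in those fits, and it passed in the 13 alternative fits that tested it. The filter kept GA2ox4 through the stage in which it rose, so its direction is not independent of the filter.

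Aquaporins, the water channels of plasma membrane and vacuole, had 3 rises and 2 falls among 12 tested, against 9.12% higher and 4.38% lower over all loci, with a median log2 fold change of 0.00. The 3 that rose are channels of the tonoplast, the vacuole's membrane. TIP2;2 (LOC_Os06g22960) had 501 and 427 FPKM at stage 12, against 31.8, 25.8 and 30.4 FPKM at stage 10 (log2 fold change 3.93, SE 0.31, limma adjusted p = 0.00471). The libraries of each stage lay close together there, and the gene passed in all 15 alternative fits. TIP5;1 (LOC_Os04g46490), whose Arabidopsis counterpart is a pollen channel, had 63.5 and 32.9 FPKM at stage 12, against 0.987, 2.38 and 5.23 FPKM at stage 10 (log2 fold change 3.76, SE 0.49, limma adjusted p = 0.00783). TIP2;1 (LOC_Os02g44080) had 15.8 and 3.57 FPKM at stage 12, against 0, 0.279 and 1.89 FPKM at stage 10 (log2 fold change 2.52, SE 0.62, limma adjusted p = 0.0429), and did not pass without scaling or as TPM. The plasma membrane channel PIP2;7 (LOC_Os09g36930) fell, with 265 and 439 FPKM at stage 12, against 1116, 1834 and 1941 FPKM at stage 10 (log2 fold change -2.22, SE 0.47, limma adjusted p = 0.0264). TIP3;1 (LOC_Os10g35520), also of the tonoplast and named after its values were seen, fell as well (log2 fold change -1.34). TIP1;1 (LOC_Os03g05290) was highest by far in stage 10 replicate 1, with 74.5 and 320.3 FPKM at stage 12 and 1471, 184 and 109.9 at stage 10. Of the 5 aquaporins called, the number still called was 1 without stage 12 replicate 1, 4 without stage 12 replicate 2, and 4, 2 and 3 without stage 10 replicates 1, 2 and 3.

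Heat shock genes rose in 6 of 9 cases with no fall, against 9.12% higher over all loci, and the list's median log2 fold change was 1.73. Their products are chaperones that hold and refold proteins. The HSP90-type chaperone at LOC_Os04g01740 had 32.1 and 36.1 FPKM at stage 12, against 1.58, 1.96 and 5.22 FPKM at stage 10 (log2 fold change 3.28, SE 0.41, limma adjusted p = 0.00735). The small heat shock protein HSP23.2 (LOC_Os04g36750) had 47 and 85.3 FPKM at stage 12, against 6.42, 4.07 and 6.8 FPKM at stage 10 (log2 fold change 3.27, SE 0.42, limma adjusted p = 0.00764). The small heat shock gene at LOC_Os03g16020 had 86.9 and 12.4 FPKM at stage 12, against 1.76, 3.06 and 5.87 FPKM at stage 10, with a 7-fold gap between the stage 12 libraries (log2 fold change 3.02, SE 0.74, limma adjusted p = 0.0413), and did not pass as TPM. Its neighbour at LOC_Os03g16030 had 45.4 and 51.4 FPKM at stage 12, against 12.8, 7.05 and 9.64 FPKM at stage 10 (log2 fold change 2.21, SE 0.38, limma adjusted p = 0.0155), while LOC_Os03g16040, next in the row, had 40.5 and 49.6 FPKM at stage 12 and 58.8, 48.6 and 45.7 at stage 10 (limma adjusted p = 0.771). Such neighbours are similar in sequence, so reads may have been split between them. HSP26.7 (LOC_Os03g14180) and HSP101 (LOC_Os05g44340), named after their values were seen, rose, with log2 fold changes of 1.73 (SE 0.35, limma adjusted p = 0.0237) and 1.67 (SE 0.39, limma adjusted p = 0.0372).

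The summed level of the heat shock list was 305 and 282 FPKM at stage 12, against 96.3, 78.7 and 94.8 FPKM at stage 10 in ostie1-1. In WT it was 361, 22.9 and 18.9 FPKM at stage 12, against 39.4, 37.7 and 184 FPKM at stage 10. The WT libraries of 1 stage thus differed by more than 10-fold at stage 12 and more than 4-fold at stage 10, with 1 high library each, while the mutant's stages did not overlap. These genes respond to temperature, the anthers came from the field, and the part of sampling conditions in the change was not tested. Of the 6 that rose, the number still called was 0 without stage 12 replicate 1, 3 without stage 12 replicate 2, and 5, 2 and 5 without stage 10 replicates 1, 2 and 3. In a fit of all 11 libraries, whose common spread takes in the WT libraries, 0 of the 6 were called, and 2 without WT stage 10 replicate 3.

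Among the cellulose synthases of growing walls 1 of 5 fell, against 4.38% of all loci. CESA1 (LOC_Os05g08370) had 35.2 and 32.6 FPKM at stage 12, against 55.5, 87.8 and 85.2 FPKM at stage 10 (log2 fold change -1.12, SE 0.28, limma adjusted p = 0.0457), and the list's median was -1.12. All 5 had negative log2 fold changes. With values rescaled as TPM or left without scaling, 0 of the 5 was called. CESA1 passed in 1 of the 5 fits that leave out a library, the one without stage 10 replicate 1.

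In the list of secondary wall and lignin genes 1 of 12 fell, a count near that over all loci (4.38% lower, 13.5% called), with a median of -0.60. With other scalings 2 to 3 of the 12 were called. COMT1 (LOC_Os08g06100), a methyltransferase of lignin synthesis, had 91.7 and 231 FPKM at stage 12, against 804, 712 and 612 FPKM at stage 10 (log2 fold change -2.27, SE 0.53, limma adjusted p = 0.0359), and passed in 1 of the 5 fits that leave out a library, the one without stage 12 replicate 2. The phenylalanine ammonia-lyase at LOC_Os02g41630, which opens the pathway, had 112 and 309 FPKM at stage 12 and 2058, 815 and 780.1 at stage 10 (limma adjusted p = 0.062). Stage 10 replicate 1 was the highest stage 10 library in 11 of the 12 genes, against 31.4% of all loci. Stage 12 replicate 2 was the higher stage 12 library in 10 of the 12, against 42.1% of all loci. These are the libraries that stood together on the second principal component, and the part of that component in the result was not tested.

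No member of the lists for meiosis (12 tested), cell division (4), floral stamen identity (4), pistil and glume identity (3), photosynthesis (8), the clock (4) or reference genes (3) was called. Their unadjusted p was under 0.05 in 2, 1, 2, 1, 0, 0 and 1 of the members tested, against 29.3% of all loci. Over all loci 13.5% were called, so a count of 0 in lists this small does not show that their genes were stable. The median log2 fold changes of these lists ran from -0.79 in stamen identity to 0.11 in reference genes, whose median was -0.06 without stage 12 replicate 2 and -0.10 with quantile normalization. The stamen factor MADS3 (LOC_Os01g10504), of the C class, had 97.6 and 87.2 FPKM at stage 12 and 83.9, 178 and 132 at stage 10, so that a factor that helps define stamens was present in every library. The E class factor MADS8 (LOC_Os09g32948) had 311 and 166 FPKM at stage 12 and 364, 603 and 573 at stage 10. The meiotic recombinase DMC1B (LOC_Os11g04954) had 8.09 and 9.83 FPKM at stage 12 and 6.02, 12.9 and 11.9 at stage 10 (limma adjusted p = 0.859). The mitotic cyclin CYCB2;1 (LOC_Os04g47580) had 21.1 and 15.3 FPKM at stage 12 and 8.69, 5.05 and 8.78 at stage 10, which did not overlap and did not pass (limma adjusted p = 0.0805). Actin ACT1 (LOC_Os03g50885), often used as a constant gene, had 1459 and 2078 FPKM at stage 12 and 923, 515 and 421 at stage 10 (log2 fold change 1.57, limma adjusted p = 0.123), while ubiquitin UBQ5 (LOC_Os01g22490) changed by 0.10.

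Markers of other tissues gave the following summed levels. Photosynthesis genes had 60.4 and 21.4 FPKM at stage 12, against 82.5, 34.7 and 32.6 FPKM at stage 10, overlapping between stages. Pistil and glume MADS genes had 57.1 and 55 FPKM at stage 12, against 63.6, 124 and 131 FPKM at stage 10, lower at stage 12, of which most was MADS6 (LOC_Os02g45770) with 45.1 and 50.1 FPKM at stage 12 and 59.3, 115 and 119 at stage 10. Of the 16 photosynthesis genes 8 have more than 1 transcript model, as do 5 of the 8 pistil and glume genes. None of these was tested, so low sums are not read as absence. The part of other tissues in the stage change was not tested.

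**Figure D4:**
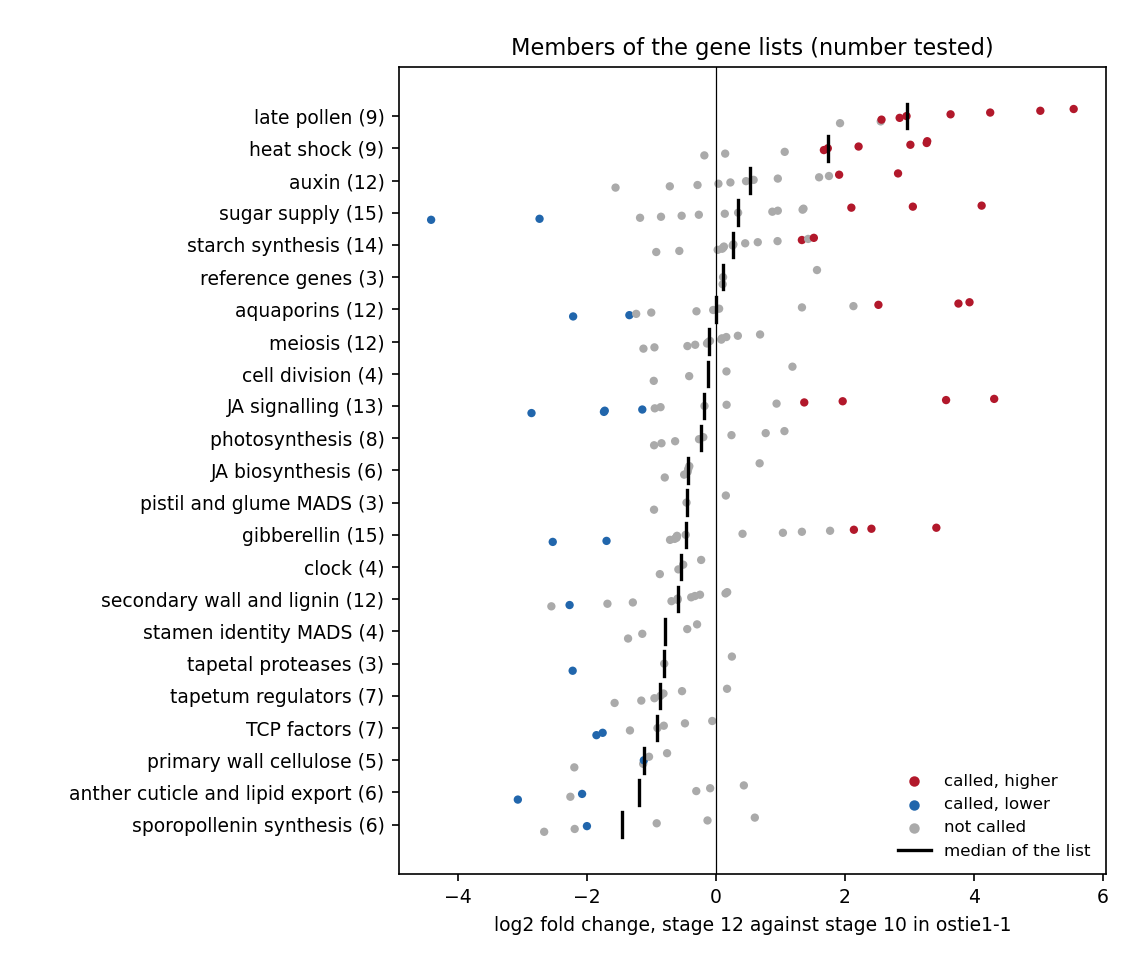
Log2 fold change of stage 12 against stage 10 in ostie1-1 (horizontal axis) for the tested members of the 23 gene lists, sorted by the list's median (black bar), with the number tested in brackets. Called rises (red) stand furthest right in the late pollen list, and CSA in the sugar supply list is the called fall furthest left.

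Over all loci, the largest rise among loci at 20 FPKM or more in the higher stage was that of LOC_Os04g11130, with 2847 and 1568 FPKM at stage 12, against 2.05, 11.2 and 79.8 FPKM at stage 10 (log2 fold change 7.21, SE 1.15, limma adjusted p = 0.0129). It was followed by LOC_Os01g14940, with 738 and 313 FPKM at stage 12, against 0.765, 1.37 and 16.3 FPKM at stage 10 (log2 fold change 6.87, SE 0.91, limma adjusted p = 0.0083). In both, stage 10 replicate 3 was the highest of its stage. The largest fall was that of LOC_Os05g37110, with 0 and 0.181 FPKM at stage 12, against 146, 118 and 113 FPKM at stage 10 (log2 fold change -6.84, SE 0.33, limma adjusted p = 0.00219). The stage 10 libraries agreed closely there, and the gene passed in all 15 alternative fits. LOC_Os08g43290 had 1.85 and 4.68 FPKM at stage 12, against 121, 381 and 1043 FPKM at stage 10 (log2 fold change -6.49, SE 0.78, limma adjusted p = 0.0065). None of these 4 IDs is paired with a gene name in the tables used here. Over the 15 alternatives their highest limma adjusted p was 0.104, 0.0858, 0.0499 and 0.0771.

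Complete switches were few, and the loci concerned had low levels. At stage 12, 25 loci had at least 1 FPKM in both libraries after being listed at 0 in all 3 stage 10 libraries, with a median level of 2.09 FPKM and a highest of 6.86 FPKM. In the reverse direction 15 loci were listed at 0 in both stage 12 libraries after at least 1 FPKM in all 3 stage 10 libraries. Their highest stage 10 mean was 15.97 FPKM. Of the 25, 8 were also listed at 0 in all 3 WT stage 10 libraries, 1 reached 1 FPKM in all WT stage 12 libraries, and 0 did both. Of the 15, 0 were listed at 0 in all WT stage 12 libraries, and 7 reached 1 FPKM in all WT stage 10 libraries.

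The last question was whether the mutant's stage change differed from that of WT. It did at 4 of 21279 loci (0.0188%), all with a larger rise in ostie1-1, and at an unadjusted p under 0.05 it did at 1156 loci (5.43%). WT stage 10 replicate 3 stood apart from its group, with 25.97% of the FPKM sum in its 10 highest loci against 9.63% and 10.7%. On that measure it lay near the ostie1-1 stage 10 libraries, which had 23.6%, 23.9% and 24.3%. Its summed photosynthesis genes had 2060.0 FPKM against 115 and 94.6 FPKM, and its secondary wall and lignin genes 7052 FPKM against 635 and 780.3 FPKM in the other 2. The ostie1-1 stage 10 libraries had 82.5, 34.7 and 32.6 FPKM of the photosynthesis genes. Of the secondary wall and lignin genes they had 3803, 2120 and 1850 FPKM. The part of such tissue in the comparison was not tested, nor was that of the likeness of WT stage 10 replicate 3 to the mutant. Without this library 18 loci (0.0853%) were called, 10 with a higher (0.0474%) and 8 with a lower change (0.0379%) in ostie1-1. All 4 were among these 18. The count was 0 with values rescaled as TPM or with a pseudocount of 0.1. The clearest was LOC_Os03g40800, named after its values were seen. It had 24.2 and 20.9 FPKM at stage 12, against 0, 0.312 and 0 FPKM at stage 10 in ostie1-1. In WT it had 1.07, 0 and 0.659 FPKM at stage 12 and was listed at 0 in all stage 10 libraries. Its log2 fold change was 4.01 larger in ostie1-1 than in WT (SE 0.40, limma adjusted p = 0.0129). The other 3 differed by 2.31 to 2.33 (limma adjusted p = 0.0353 each) and stayed under 6 FPKM in every library. These 3 reached 1 FPKM only in the 2 ostie1-1 stage 12 libraries, and LOC_Os03g40800 did so elsewhere only in WT stage 12 replicate 1. The filter on low values, which asks for 2 libraries, thus kept all 4 through the group in which they rose. The direction of the 4 is therefore not independent of the filter.

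No gene list member passed that test. The lowest adjusted p was 0.144, and 0.0852 without WT stage 10 replicate 3. Across loci the log2 fold changes of ostie1-1 and WT had a Pearson correlation of 0.80 (21279 loci), and of 0.71 without that WT library (21103 loci), given as a description. Of the 2640 loci called in ostie1-1, 2433 (92.2%) had the same sign in WT without that library, and 392 were called in WT, where 2.45% of all loci were. Of the 48 list members called, 45 had the same sign there and 14 were called. The share with the same sign over all loci was not worked out, so 92.2% and 45 of 48 are given as a description. Since the 48 were taken as called in ostie1-1, the size of their change in WT is not set against it.

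The WT values of single members show where the likeness held. CSA had 23.1, 11.1 and 1.86 FPKM at stage 12, against 88.8, 97.2 and 171 FPKM at stage 10 in WT, a log2 fold change of -3.29 without replicate 3. The profilin at LOC_Os10g17680 had 369, 385 and 875 FPKM at stage 12, against 56.8, 11.4 and 28.9 FPKM at stage 10 in WT (4.22 without replicate 3). SUT3 had 22.2, 12.7 and 30.7 FPKM at stage 12, against 0.766, 0.0418 and 1.36 FPKM at stage 10 in WT. CSA was lower and the profilin and SUT3 were higher at stage 12 in both genotypes, with no overlap in either.

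Others were not called in WT. In WT without stage 10 replicate 3 the sign was opposite for 3 called members. These were AP25, the TCP gene at LOC_Os11g07460 and the small heat shock gene at LOC_Os03g16030, named after their values were seen. With all 11 libraries, 44 of the 48 called members had the same sign, and AP25 fell in WT too (log2 fold change -0.77). The TCP gene at LOC_Os11g07460 had 2.06, 0.0616 and 0.281 FPKM at stage 12, against 0.169, 0.166 and 1.02 FPKM at stage 10 in WT, so that only ostie1-1 stage 10 libraries reached 4 FPKM. The difference of its stage changes was -2.36 without WT stage 10 replicate 3 (limma adjusted p = 0.0987). PCF5 had 2.09, 0.395 and 0.295 FPKM at stage 12, against 1.31, 1.77 and 7.26 FPKM at stage 10 in WT. AP25 had 0.846, 0.455 and 0.369 FPKM at stage 12, against 0.509, 0.318 and 5.46 FPKM at stage 10 in WT, where replicate 3 of stage 10 lay within the range of the ostie1-1 stage 10 libraries and the others lay below it. CESA1 had 31, 27 and 35.1 FPKM at stage 12, against 32.9, 32.6 and 35.9 FPKM at stage 10 in WT, all in a narrow range below each ostie1-1 stage 10 library.

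**Figure D5:**
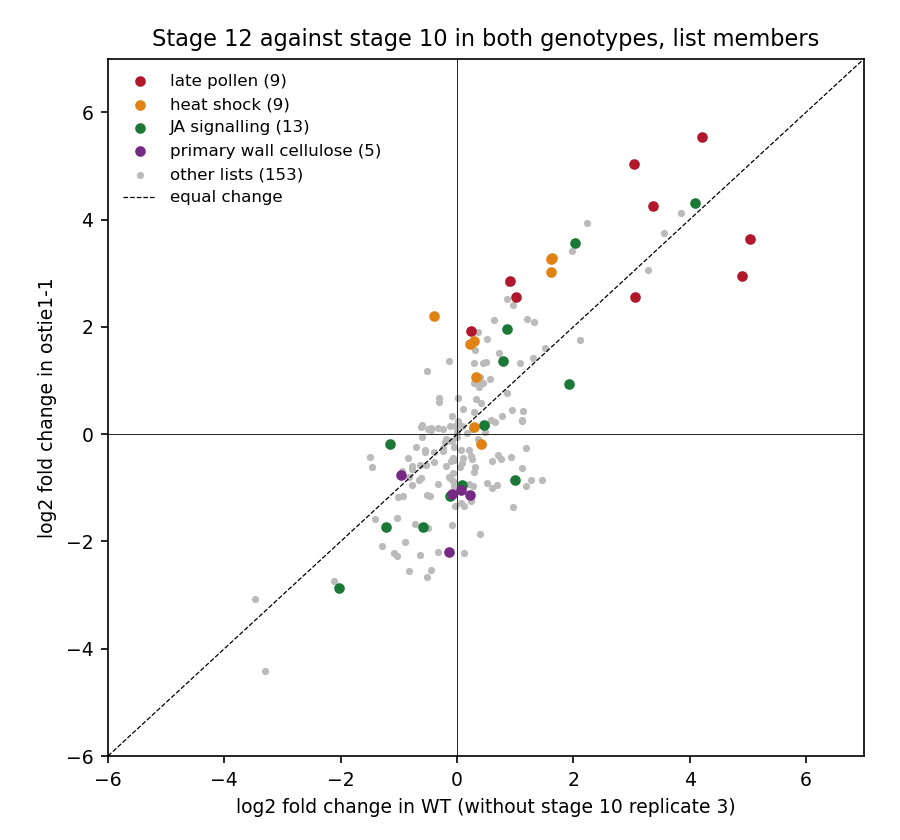
Log2 fold change of stage 12 against stage 10 in ostie1-1 (vertical axis) and in WT without stage 10 replicate 3 (horizontal axis) for the 189 list members tested, with the line of equal change dashed. Late pollen genes (red) lie at the upper right, heat shock genes (orange) mostly near 0 to 1.6 in WT, and no member passed the test of the difference.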

How the data were processed

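Messenger RNA of whole rice anthers was sequenced in 11 libraries, of which the 5 of ostie1-1 are described here with the 6 of WT beside them. Groups and replicate numbers came from the labels. The values are FPKM deposited by the authors for each of 66338 MSU transcript models. The submitters' processing notes name HISAT2 2.2.0, featureCounts and the IRGSP-1.0 genome build. How counts became FPKM, the use of strand and the treatment of shared reads are not given in the sources used here, so overlapping and near-identical genes are uncertain. The files give no absolute depth, so counting intervals are left out. The FPKM sums of the 5 libraries were 805246 to 845797.

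Models were summed per locus. Loci that reached 1 FPKM in 2 or more of the 5 libraries were kept, scaled by median-of-ratios factors (0.876 to 1.11) and fitted as log2(FPKM + 1) with limma 3.58.1 (trended variance, R 4.3.3), with Benjamini-Hochberg adjustment over all loci tested and a threshold of 0.05. A locus low in 1 stage can be kept through the other stage alone, and its direction is then not independent of the filter. Examples are EXPB1, SUT3, AGPL2, AGPL3, JAZ15, GA2ox4, AP25, the TCP gene at LOC_Os11g07460 and LOC_Os05g37110. The difference from WT was an interaction contrast over 11 libraries, and over 10 without WT stage 10 replicate 3. FPKM hold no counts for a count model. Below an FPKM of 0.3 the ratios between libraries were near whole-number ratios, which gave the relative depths, within a log2 tolerance of 0.002.

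The members and the 23 gene lists were chosen with earlier results of these data known, so a list's direction is not independent evidence. From each list up to 4 called genes with the largest change are named, with groups that do not overlap and a mean of 5 FPKM in the higher stage, and over all loci up to 2 rises and 2 falls at 20 FPKM. Other called genes were named after their values were seen, and genes not called were named for their role. Alternatives were a TPM or quantile scale, no scaling, a pseudocount of 0.1, no filter, no trend, the highest model per locus, all libraries in 1 fit, the replicate number as a block and each library left out. No sequence is printed, since the reference tables used here did not pair these IDs with one.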

Additional observations from a re-analysis of the deposited data

Results flagged for a closer look

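The stage change in ostie1-1 differed from that in WT at 4 loci by the interaction test across all 11 libraries (limma, Benjamini-Hochberg adjusted p under 0.05). All 4 rose more in ostie1-1, and they were also among the 18 called without WT stage 10 replicate 3. Levels of 3 of them stayed under 6 FPKM in every library and reached 1 FPKM only in the 2 ostie1-1 stage 12 libraries. The other, LOC_Os03g40800, reached 1 FPKM elsewhere only in WT stage 12 replicate 1. The filter on low values, which asks for 2 libraries, kept all 4 through the group in which they rose. Their direction is therefore not independent of the filter. The count moves with the scale used, as given below. No list member was among the 4.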

How the results depend on the processing

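The 2640 calls became 4808 with all libraries except WT stage 10 replicate 3 in 1 fit, 1641 without the filter on low values and 1273 with the replicate number as a block, and 76 to 2556 with 1 ostie1-1 library left out. The labels do not say whether replicate numbers pair the samples. Same-numbered libraries deviated from their stage means with correlations of -0.477 and -0.202. The deviations of the 2 stage 12 libraries mirror each other, so these values cannot settle it, and the block is given only here. The count of 48 list members called became 25 without the filter, 24 with the block, 28 with all 11 libraries and 2 to 42 with 1 library left out. The 4 loci that differed from WT became 7 without scaling, 0 as TPM, 1 without the trend, 196 without the filter, 0 with a pseudocount of 0.1, 9 with quantile normalization, 0 with the block and 0 to 18 with 1 library left out. The 25 loci that appeared at stage 12 became 0 at a limit of 5 FPKM and 39 to 97 with 1 library left out, and the 15 that were lost became 2 and 18 to 51. Of the 38 genes named by rule, 3 of 36 tested passed without ostie1-1 stage 12 replicate 1, 23 of 36 without stage 12 replicate 2, and 28, 18 and 31 of 38 without stage 10 replicates 1, 2 and 3. In the fit of all 11 libraries the members still called were 0 of 6 in heat shock, 2 of 5 in gibberellin, 5 of 8 in JA signalling and 3 of 5 in aquaporins. As was all but fixed by stages that did not overlap, no gene named as called reversed in direction. List medians near 0 did: that of JA signalling was 0.05 without stage 12 replicate 1, that of reference genes -0.06 without stage 12 replicate 2, -0.02 without stage 10 replicate 3 and -0.10 with quantile normalization, and that of aquaporins ran down to -0.04. The medians of the meiosis, cell division, photosynthesis and pistil lists also changed sign with 1 library left out. The cause of each move was not tested, and the fits with 1 library left out also had fewer libraries. With the same number of libraries, the fits without stage 10 replicates 1, 2 and 3 gave 2556, 611 and 1633 calls. Quantile normalization moved the median log2 fold change of all loci to -0.14, it was 0.0035 without the filter, and 59.7% of the quantile calls were rises, against 67.6% in the main result. The main limits are the 2 stage 12 libraries and the unknown absolute depth.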
